A study of Mus musculus with 6 samples.

Results

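The 10 genes described here, Egr1, Egr2, Egr3, Fos, Fosb, Jun, Junb, Jund, Nr4a1 and Ier2, are immediate early response genes, chosen by name from the 46963 genes of a count table of mouse B-cell RNA. They were measured in CD43-depleted splenic B-cells from wt mice, from mice that lack the intronic IgH enhancer Eμ (Eμ-deficient) and from mice that lack the enhancers of the IgH 3′ regulatory region (3′RR-deficient). The Eμ-deficient mice carry the EμMAR deletion, which also takes the matrix attachment regions, all mice were in a 129 background, and the study's methods give males and females of 8 to 12 weeks. Both deletions are in the germline and therefore in every cell of the mouse.

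Resting B-cells were compared with B-cells stimulated for 2 days with 5 μg per ml of lipopolysaccharide (LPS). LPS is a bacterial outer membrane component that activates B-cells through a Toll-like receptor. Levels after LPS are therefore those at 2 days, and the first hours of the response were not sampled. Each of the 3 genotypes has 1 resting and 1 LPS library, 6 in all, and the labels state that cells of 2 mice were pooled for each. The study's methods describe 4 mice and 2 RNA pools per genotype, and how these relate to the 6 libraries is not given in the sources used here. By the labels, resting cells spent 2 days in medium without stimulus, whereas the study's methods describe them as taken before stimulation, so that freshly isolated and cultured cells cannot be told apart here. In 1 protocol text the labels give the LPS dose in mg in place of μg.

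Immediate early genes are transcribed within minutes of a signal from factors already present in the cell, chiefly serum response factor with its ELK partners and CREB, which are reached by the MAP kinase cascade and by calcium. Their RNAs are short-lived, partly because of AU-rich elements in the 3′ untranslated region (UTR), and their proteins switch the next wave of genes on or off. In B-cells they are the rapid readout of the antigen receptor and of CD40 and Toll-like receptors. FOS and JUN proteins pair to form the transcription factor AP-1, EGR proteins are zinc finger factors, NR4A1 (Nur77) is an orphan nuclear receptor used as a reporter of antigen receptor signalling, and IER2 is a small nuclear protein.

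Library totals over genes ran from 9111974 to 21998587 counts. Levels are given as CPM, the counts scaled to a common library size with edgeR's TMM method. The B-cell markers Ms4a1, Cd79a, Cd79b, Pax5, Cd22 and Cr2 were present in all 6 libraries and summed to between 2280 and 2802 CPM in resting and between 1481 and 1732 CPM in LPS-stimulated B-cells. In the Eμ-deficient resting library Ms4a1 (444 CPM) and Cr2 (732) were higher than in wt (339 and 394). Cd79a (271), Cd79b (218), Pax5 (399) and Cd22 (217) were lower than in wt (570, 301, 580 and 391). The paper cites an earlier report that Eμ-deficient mice lack follicular B-cells. The part of this difference in the ratios between genotypes was not tested. After LPS, Mki67, Top2a and Pcna, genes of cell division, were higher in the fit over all libraries (3 of 5 activation genes), and Cd86 and Myc were lower. RNA of other blood cells was also present and differed between the culture states. Summed over 8 myeloid markers it was 151 to 365 CPM in resting and 21.4 to 35.4 CPM in LPS libraries, with Ly6g at 0 counts in all 6. Summed over 7 T-cell markers it was 26.3 to 45.0 CPM and 4.88 to 16.1 CPM, with Cd3e, Cd8a and Thy1 at 0 counts in the wt LPS library. Over 6 erythroid markers it was 3359 to 20163 CPM in resting libraries, the highest in the Eμ-deficient one, and 53.0 to 671 CPM in LPS libraries. Over all genes tested, 21.1% were called lower and 19.7% higher after LPS, the shares beside which the counts of activation genes and of these markers stand. Called lower after LPS were 7 of 7 tested myeloid, 5 of 7 T-cell and 6 of 6 erythroid markers, and of 5 plasma cell genes 2 were higher (Prdm1 and Xbp1). The part of these cells in the results that follow was not tested. In bulk RNA, fewer cells that express a gene and less of its RNA per cell cannot be told apart.

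All 10 genes were lower in LPS-stimulated than in resting B-cells. Together they held 2305 CPM in the wt, 2522 CPM in the Eμ-deficient and 2420 CPM in the 3′RR-deficient resting library, and 236, 345 and 365 CPM in the LPS libraries of the same genotypes. The change was tested over all 6 libraries with edgeR's quasi-likelihood test, in which genotype and state add up, for 14600 genes, all 10 members among them. Its error is the departure of the 3 pairs of libraries from a common change, not the spread between mice. At a Benjamini-Hochberg adjusted p under 0.05 it called 10 of the 10 genes lower, where 21.1% of all genes tested were called lower. Without the Eμ-deficient libraries it called 9, all but Egr2. In 10 of 10 genes, all 3 LPS libraries lay below all 3 resting libraries, as in 27.3% of all genes.

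**Figure D1:**
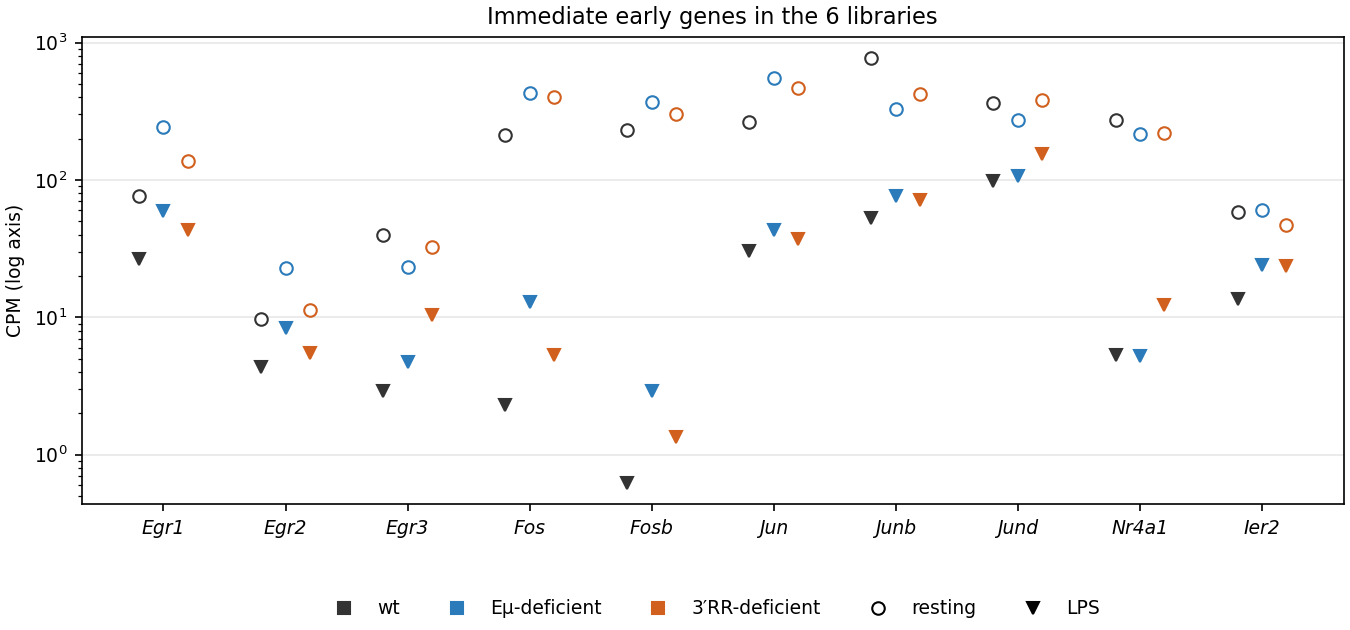
CPM of each gene (log axis) in the 6 libraries, resting as open circles and LPS as filled triangles, coloured by genotype, 1 library per point and no error bars. The circles lie above the triangles for all 10 genes, with the widest gap for Fosb, from between 231 and 370 CPM in resting to between 0.622 and 2.91 CPM in LPS libraries.

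The FOS subunits of AP-1 had the widest gap. Fosb, whose truncated splice form accumulates on repeated stimulation in other tissues, had 4195 counts (231 CPM) in the wt, 4888 (370 CPM) in the Eμ-deficient and 6232 (303 CPM) in the 3′RR-deficient resting library. In the LPS libraries it had 13 (0.622 CPM), 31 (2.91 CPM) and 12 counts (1.35 CPM). The groups are far apart and the LPS values rest on few counts. The log2 fold change was -7.72 (standard error 0.41, adjusted p = 4.22e-05 by edgeR's quasi-likelihood test), a 210-fold lower level that ranked 20 from the lowest of the 14600 genes. Fos, the prototype of the family and the partner that gives AP-1 its strongest DNA binding, had 213, 430 and 399 CPM in wt, Eμ-deficient and 3′RR-deficient resting B-cells. After LPS it had 2.30, 12.8 and 5.29 CPM, the highest of them in the Eμ-deficient library. Its log2 fold change was -5.92 (standard error 0.39, adjusted p = 6.65e-05), a 60.6-fold lower level. Fos lies on the plus strand of chromosome 12 of mm10 (GRCm38) from 85473890 to 85477273 with 4 exons in its annotated transcript, and Fosb on the minus strand of chromosome 7 from 19302696 to 19310051 with 4 exons.

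The JUN subunits, which can form AP-1 with FOS proteins or with each other, followed in the order Jun, Junb, Jund. Jun (chromosome 4, 95049034 to 95052222, 1 exon) had 265, 549 and 466 CPM in wt, Eμ-deficient and 3′RR-deficient resting and 30.2, 43.4 and 36.9 CPM in LPS libraries, a log2 fold change of -3.48 (standard error 0.28, adjusted p = 8.21e-05). Junb (chromosome 8, 84974484 to 84978718, 1 exon), which often opposes Jun on proliferation genes, had 774, 331 and 422 CPM in resting and 52.8, 76.998 and 71.8 CPM in LPS libraries. Its wt library was the highest of the resting and the lowest of the LPS libraries, and its log2 fold change was -2.84 (standard error 0.38, adjusted p = 0.000620). Jund (chromosome 8, 70698949 to 70700616, 1 exon), the JUN gene that most cells express without stimulation, changed least among the JUN genes. It had 365, 276 and 380 CPM in resting and 97.8, 106 and 154 CPM in LPS libraries, a log2 fold change of -1.52 (standard error 0.26, adjusted p = 0.00210). On the opposite strand, the antisense gene Junos beside Jun had 6 to 46 counts per library and Gm11175 beside Jund 2 to 25. Prdx2, whose annotated end overlaps the Junb region, had 380 to 1671 counts and was highest in the wt LPS library.

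Divided by exon length, so that genes can be compared, the 5 AP-1 subunits summed to 766, 724 and 775 CPM per kb in wt, Eμ-deficient and 3′RR-deficient resting B-cells and to 92.2, 117 and 138 CPM per kb after LPS. Fos and Fosb made up 16.7%, 33.5% and 28.1% of that sum in resting and 1.17%, 5.08% and 1.79% in LPS libraries. Jund made up 28.6%, 22.8% and 29.4% in resting and 63.6%, 54.6% and 67.2% in LPS libraries. The RNA of these 5 subunits in the LPS libraries was thus mostly Jund and Junb, and in the wt resting library Junb alone held 43.9%. Other genes whose proteins can join AP-1 are not in this sum, among them Batf, at 58.5, 43.5 and 83.0 CPM in the wt, Eμ-deficient and 3′RR-deficient LPS libraries.

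**Figure D2:**
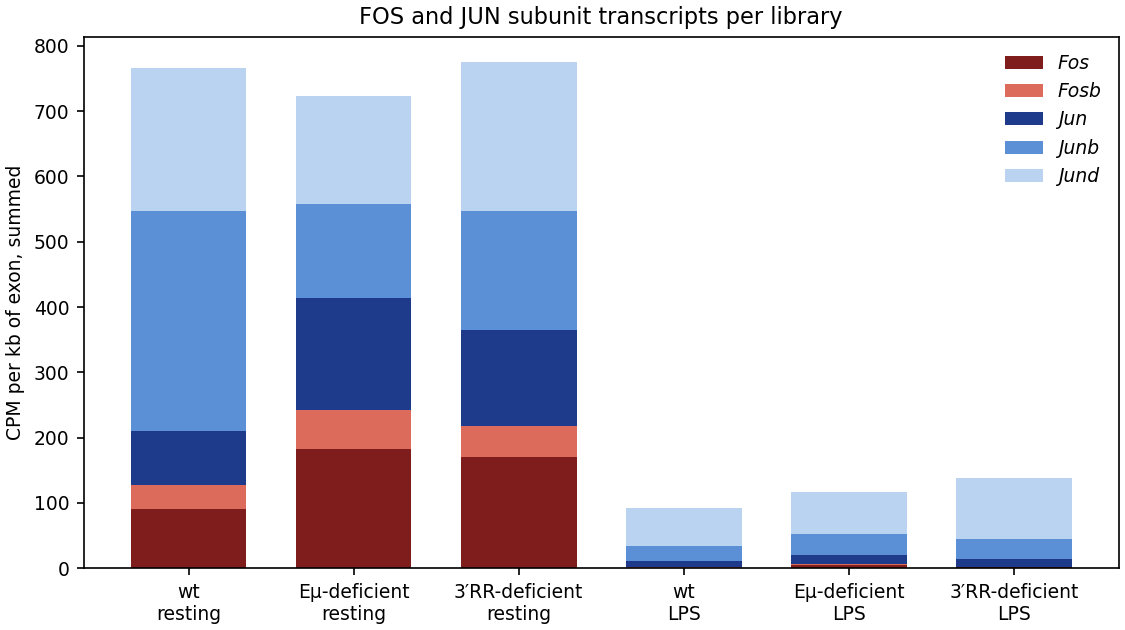
Level per exon length (CPM per kb, linear axis from 0) of the 5 FOS and JUN subunits, stacked, 1 bar per library and no error bars. The bars of the 3 resting libraries reach 724 to 775 CPM per kb and those of the LPS libraries 92.2 to 138 CPM per kb, where the red FOS part nearly vanishes and Jund is the largest part.

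Nr4a1 (chromosome 15, 101254269 to 101274795, 8 exons in its longest coding transcript) had 4944, 2855 and 4551 counts in wt, Eμ-deficient and 3′RR-deficient resting B-cells, or 272, 216 and 221 CPM. After LPS it had 112, 56 and 110 counts, or 5.36, 5.25 and 12.4 CPM. The resting libraries were close together and the 3′RR-deficient one stood highest after LPS. Its log2 fold change was -5.06 (standard error 0.37, adjusted p = 6.65e-05), a 33.4-fold lower level. Ier2 (chromosome 8, 84661331 to 84662852, 1 exon) changed much less, from 58.6, 60.8 and 47.0 CPM to 13.6, 24.1 and 23.6 CPM, a log2 fold change of -1.48 (standard error 0.27, adjusted p = 0.00282).

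Sequence was read from RefSeq for the genes with the widest gap, Fos, Fosb and Nr4a1, and for Egr2, whose gap was the narrowest, to show what their promoters hold. The windows are the 250 bases before the RefSeq transcription start (GRCm38.p6), at chr12:85473640-85473889 (plus strand) for Fos, chr7:19310046-19310295 (minus strand) for Fosb, chr15:101266596-101266845 (plus strand) for Nr4a1 and chr10:67537619-67537868 (plus strand) for Egr2, each written 5′ to 3′ along the gene. Capitals mark the letters TGACG, the core of the cAMP response element bound by CREB and ATF proteins, on either strand (CGTCA on the other one), and in Egr2 also a CArG box, the serum response factor site.
Fos: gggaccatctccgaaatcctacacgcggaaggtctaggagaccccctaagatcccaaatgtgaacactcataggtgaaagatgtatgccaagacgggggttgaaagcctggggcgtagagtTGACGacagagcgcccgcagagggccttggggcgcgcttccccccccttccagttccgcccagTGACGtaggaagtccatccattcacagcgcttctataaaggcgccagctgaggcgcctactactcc
Fosb: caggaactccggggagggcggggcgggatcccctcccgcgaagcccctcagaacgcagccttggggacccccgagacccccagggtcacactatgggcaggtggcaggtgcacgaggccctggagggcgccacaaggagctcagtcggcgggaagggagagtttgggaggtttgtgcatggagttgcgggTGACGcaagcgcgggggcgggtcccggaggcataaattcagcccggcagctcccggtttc
Nr4a1: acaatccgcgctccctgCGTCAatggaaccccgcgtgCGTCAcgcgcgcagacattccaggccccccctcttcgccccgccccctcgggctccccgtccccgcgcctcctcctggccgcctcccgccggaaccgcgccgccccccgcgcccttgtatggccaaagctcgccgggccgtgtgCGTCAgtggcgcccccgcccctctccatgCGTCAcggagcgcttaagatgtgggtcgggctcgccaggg
Egr2: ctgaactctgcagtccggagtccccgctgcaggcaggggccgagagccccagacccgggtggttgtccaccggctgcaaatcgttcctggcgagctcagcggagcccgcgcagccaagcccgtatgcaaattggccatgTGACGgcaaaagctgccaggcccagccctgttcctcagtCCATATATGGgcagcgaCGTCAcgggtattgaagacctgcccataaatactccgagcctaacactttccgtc
The core lay 129 and 66 bases before the start of Fos, 60 bases before that of Fosb, and 111 and 55 bases before that of Egr2, whose CArG box lay 72 bases before the start. The Nr4a1 window held 4 cores, of which 2 lay 69 and 40 bases before the start.

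Of the 10 genes, 7 had a window in the RefSeq table, and 6 were searched, since that of Jund lay 1210 bases from the annotated start. TGACG was present in 5 of the 6 (all but Jun), against 17.8% of 32851 windows of the same length over all genes. The CArG box was present in 1 of 6, against 1.47% of windows. The full cAMP response element TGACGTCA, the AP-1 site TGANTCA and the EGR site GCGTGGGCG were in 0 of the 6 windows, against 1.55%, 6.75% and 0.536% of all windows. Both strands were searched, and a full response element would also count as a core. A match of letters is a description and not a bound site. Bases outside the 250 before the start were not searched, so that a window without a motif does not mean a promoter without it. Genes with a narrow and with a wide gap both held the core.

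Features of the RNAs were not used to choose the 10 genes. Their longest coding transcripts had a GC content of 51.3% to 67.1% (median 56.5%), against a median of 50.0% over 11284 coding genes tested. Jun, Junb, Jund and Ier2 have a single exon, as do 2.54% of those genes. The 3′ UTR held at least 1 copy of the AU-rich pentamer ATTTA in 9 of the 10 genes, all but Ier2, against 69.6% of coding genes, with a median of 2.5 copies against 2.0 and a median 3′ UTR length of 1008 against 1140 bases. The longer form TATTTAT was present in 4 genes (Fos, Fosb, Jun and Jund), against 29.9%. The following stretches of 30 bases, 5′ to 3′ in the GENCODE M21 transcripts, show the pentamers in capitals in a FOS, a JUN and the NR4A gene, each with 2 copies close together (in Fos they overlap).
Fos: tattgtgttttcaATTTATTTAttaagatg
Jun: gtgatcATTTAtaatcataggaaagATTTA
Nr4a1: gATTTAtatttgtgtattttcctggATTTA
They begin at base 640 of 815, base 1028 of 1233 and base 449 of 543 of the 3′ UTR. Fosb, whose gap was wider than that of Fos, has 1 copy of the pentamer in a 3′ UTR of 2145 bases, and Egr3, whose gap was narrower, has 7 copies in 2645 bases.

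The fitted fold changes of the EGR genes were smaller than those of the FOS genes, a difference that was not tested. Egr3 (chromosome 14, 70077203 to 70082614, 2 exons) had 40.0, 23.1 and 32.6 CPM in wt, Eμ-deficient and 3′RR-deficient resting B-cells and 2.92, 4.69 and 10.3 CPM after LPS, a log2 fold change of -2.56 (standard error 0.40, adjusted p = 0.00128). Egr2 (chromosome 10, 67535475 to 67542188, 2 exons), which with Egr3 restrains lymphocyte activation, was the least abundant of the 10 in resting B-cells. It had 177, 300 and 231 counts (9.75, 22.7 and 11.2 CPM) in resting and 91, 89 and 49 counts (4.36, 8.35 and 5.51 CPM) in LPS libraries, so that the Eμ-deficient LPS library lay just below the wt resting one. Its log2 fold change of -1.22 (standard error 0.26, adjusted p = 0.00610) was the smallest of the 10, and without the Eμ-deficient libraries it was -1.003 with an adjusted p of 0.110.

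Egr1, the most abundant EGR gene (chromosome 18, from 34859823 to 34864984, 2 exons), had 1388 counts (76.5 CPM) in the wt, 3200 (242 CPM) in the Eμ-deficient and 2833 (138 CPM) in the 3′RR-deficient resting library. After LPS it had 551 (26.4 CPM), 638 (59.8 CPM) and 384 counts (43.2 CPM). In both states the Eμ-deficient library was highest and the wt library lowest. The log2 fold change for LPS was -1.74 (standard error 0.24, adjusted p = 0.000683).

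Ordered by the median level per exon length, resting B-cells held Jund (219 CPM per kb), Junb (183), Fos (170), Jun (146), Nr4a1 (63.1), Fosb (48.6), Ier2 (38.5), Egr1 (30.7), Egr3 (7.39) and Egr2 (3.31). The ranges over the 3 libraries did not overlap between the neighbours Jun and Nr4a1, Nr4a1 and Fosb, and Egr1 and Egr3, and overlapped between all other neighbours. In LPS-stimulated B-cells the order was Jund (63.7 CPM per kb), Junb (31.2), Ier2 (15.5), Jun (11.6), Egr1 (9.63), Fos (2.25), Egr2 (1.62), Nr4a1 (1.53), Egr3 (1.06) and Fosb (0.216). There the ranges were separate between Jund and Junb, Junb and Ier2, Egr1 and Fos, and Egr3 and Fosb. Fos moved from the third to the sixth place and Fosb from the sixth to the tenth, while Ier2 moved from the seventh to the third.

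Within each genotype, the LPS library was lower than the resting library for all 10 genes, and every 95% interval (exact, conditional binomial after Clopper and Pearson) lay below 0 on the log2 scale. These intervals cover counting error only and compare libraries. Over the 10 genes the median log2 ratio was -3.45 in wt, -2.20 in Eμ-deficient and -2.11 in 3′RR-deficient B-cells, where the medians over all genes tested were -0.08, 0.00 and -0.09. The ratio of Fosb ran from -8.54 (95% interval -9.45 to -7.76) in wt to -6.99 (-7.55 to -6.49) in Eμ-deficient B-cells. That of Junb was -3.87 (-3.96 to -3.78) in wt, -2.10 (-2.21 to -1.996) in Eμ-deficient and -2.55 (-2.67 to -2.44) in 3′RR-deficient B-cells. That of Egr3 was -3.78 (-4.18 to -3.40), -2.30 (-2.76 to -1.87) and -1.65 (-1.98 to -1.34). Egr2 was the most even, with an SD of 0.21 over the 3 genotypes (mean -1.21, n = 3), and Egr3 the least, with an SD of 1.09 (mean -2.58, n = 3).

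**Figure D3:**
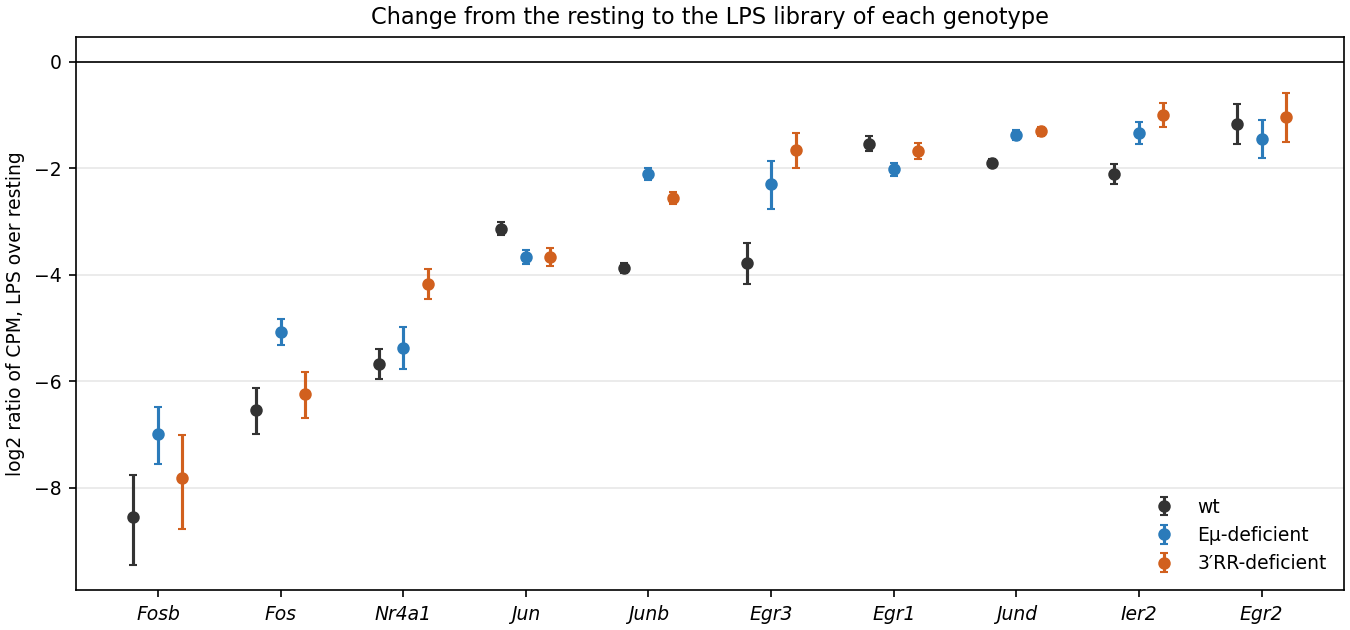
Log2 ratio of CPM, LPS over resting, of each gene within each genotype, with bars for the exact 95% counting interval and a line at 0, genes ordered by the mean of the 3 ratios. All 30 points lie below 0, from Fosb in wt at -8.54 to Ier2 in the 3′RR-deficient pair at -0.99, and the 3 genotypes lie furthest apart for Egr3 and Junb.

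Between genotypes, the model called none of the 10 genes. For 3′RR-deficient against wt B-cells, edgeR called 0 of 10 (background 0.678% of all genes), with 2 at an unadjusted p under 0.05 (Egr1 and Fos), where 5.68% of all genes were, and DESeq2 and limma-trend also called 0. For Eμ-deficient against wt B-cells edgeR called 0 of 10 (background 1.17%), with 5 at an unadjusted p under 0.05 (Egr1, Egr2, Fos, Fosb and Jun), where 8.67% of all genes were. DESeq2 called 2 (Egr1 and Fos) and limma-trend 1 (Egr1). The nearest to the threshold was Egr1, with a log2 fold change of 1.43 (standard error 0.29, adjusted p = 0.0595 by edgeR) in Eμ-deficient B-cells. Its adjusted p ran from 0.00129 to 0.0902 over 10 alternatives, and it was higher than wt in both states. Fos followed with 1.71 (standard error 0.41, adjusted p = 0.108, and 0.0009996 to 0.183 over the alternatives). Without the 3′RR-deficient libraries both were called. In 3′RR-deficient B-cells the log2 fold change was 0.78 for Egr1 (standard error 0.29, adjusted p = 0.671) and 1.01 for Fos (standard error 0.40, adjusted p = 0.744). Both comparisons share the wt libraries, so that their values are not independent of each other.

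In resting B-cells, 6 of the 10 genes were higher and 4 lower than wt in each of the deficient libraries, where 51.8% (Eμ-deficient) and 52.1% (3′RR-deficient) of all genes were higher, so that the count is near the background. Egr1, Egr2, Fos, Fosb and Jun were higher in the Eμ-deficient library, with log2 ratios of 1.66 (95% interval 1.57 to 1.76), 1.22 (0.95 to 1.497), 1.01 (0.95 to 1.07), 0.68 (0.62 to 0.74) and 1.05 (0.9997 to 1.11). In the 3′RR-deficient library the same 5 genes had 0.85 (0.76 to 0.94), 0.21 (-0.08 to 0.50), 0.90 (0.85 to 0.96), 0.39 (0.34 to 0.45) and 0.82 (0.77 to 0.87). Junb went the other way, with -1.22 (-1.27 to -1.18) in the Eμ-deficient and -0.88 (-0.91 to -0.84) in the 3′RR-deficient library. Egr3 was also lower, with -0.79 (-0.99 to -0.60) and -0.30 (-0.45 to -0.15), and so was Nr4a1, with -0.33 (-0.40 to -0.27) and -0.30 (-0.36 to -0.24), although the Eμ-deficient ratio of Nr4a1 was 0.023 once the trend on GC content was removed. The Eμ-deficient ratios of Egr1 (2.03), Fos (1.14), Fosb (0.999), Jun (1.35) and Junb (-0.74) then also left their intervals, with the same direction.

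In LPS-stimulated B-cells, 9 of the 10 genes were higher in the Eμ-deficient and 10 in the 3′RR-deficient library than in the wt library, where 50.0% and 52.5% of all genes were. With the trend of CPM on transcript GC content removed these counts were 8 and 7, and the median log2 ratio of the 10 genes went from 0.76 to 0.62 in the Eμ-deficient and from 0.75 to 0.12 in the 3′RR-deficient library. The wt library was the lowest of the 3 in 9 of the 10 (all but Nr4a1), as in 35.3% of all genes. With the GC trend removed, it was the lowest in 6 of the 10, as in 34.7% of all genes. Relative to wt, the log2 ratio of Fos was 2.48 (95% interval 1.9995 to 2.99) in the Eμ-deficient and 1.20 (0.59 to 1.81) in the 3′RR-deficient library, and Fosb 2.22 (1.25 to 3.28) and 1.12 (-0.14 to 2.37). Egr3 had 0.68 (0.11 to 1.25) and 1.83 (1.34 to 2.32). Nr4a1 was higher in the 3′RR-deficient library (1.21, 0.81 to 1.60) and not in the Eμ-deficient one (-0.03, -0.52 to 0.45). The ratios of Jun, Junb and Jund to wt lay between 0.12 and 0.66, and with the GC trend removed 4 of these 6 turned below 0, all but Jun and Junb in the Eμ-deficient library.

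The spike-in RNAs, which were left out of the library sizes, also differed between libraries. How much of them each library received is not given in the sources used here. Their ratios hold no spread between mice or cultures. The ratios were scaled like those of genes and not centred, so that their ranges also hold any difference in the amount received. Whether a gene lies inside or outside such a range therefore also depends on that amount. Over the 35 spike-ins with enough counts, log2 ratios between the LPS libraries of 3′RR-deficient and wt mice had an SD of 1.27. They ran from -3.15 to 1.62, beside 0.29 to 1.83 for the 10 genes. The SD was 0.44 between the Eμ-deficient and wt LPS libraries, where the spike-ins ran from -0.92 to 0.83 and the 10 genes from -0.03 to 2.48. In resting libraries the SD was 0.48 for Eμ-deficient over wt, where the spike-ins ran from 0.18 to 1.94. The 10 genes ran from -1.22 to 1.66 there. For 3′RR-deficient over wt in resting libraries the SD was 0.16, with a range of 0.0048 to 0.58. In that comparison the 10 genes ran from -0.88 to 0.90. Over the LPS to resting ratios the SD was 0.78 in wt, 0.13 in Eμ-deficient and 0.63 in 3′RR-deficient B-cells. In the Eμ-deficient pair, the most even by this measure, the 10 ratios ran from -6.99 to -1.34, outside the spike-in range of -0.41 to 0.13. In the wt pair the highest of the 10 ratios was -1.16 and the lowest spike-in -0.47. In the 3′RR-deficient pair the spike-ins ran from -1.37 to 1.16. There Jund (-1.2995), Egr2 (-1.03) and Ier2 (-0.99) lay inside the spike-in range and the other members below it. Beside the Eμ-deficient values, erythroid markers were 20163 CPM against 3359 CPM in the wt resting library, and myeloid markers 365 against 151 CPM. The 5 plasma cell markers summed to 2235 against 547 CPM in resting and to 1591 against 582 CPM in LPS libraries. Most of that difference was Jchain, at 1737 against 113 CPM in resting and 804 against 96.2 CPM in LPS libraries. Prdm1, Sdc1 and Xbp1 were also higher in both states, and Irf4 was 367 against 373 CPM in resting and 366 against 268 CPM in LPS libraries. In the edgeR model of Eμ-deficient against wt, 6 of 6 erythroid markers and 1 of 5 plasma cell markers (Jchain) were called higher. Of all genes tested, 1.17% were called in either direction.

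**Figure D4:**
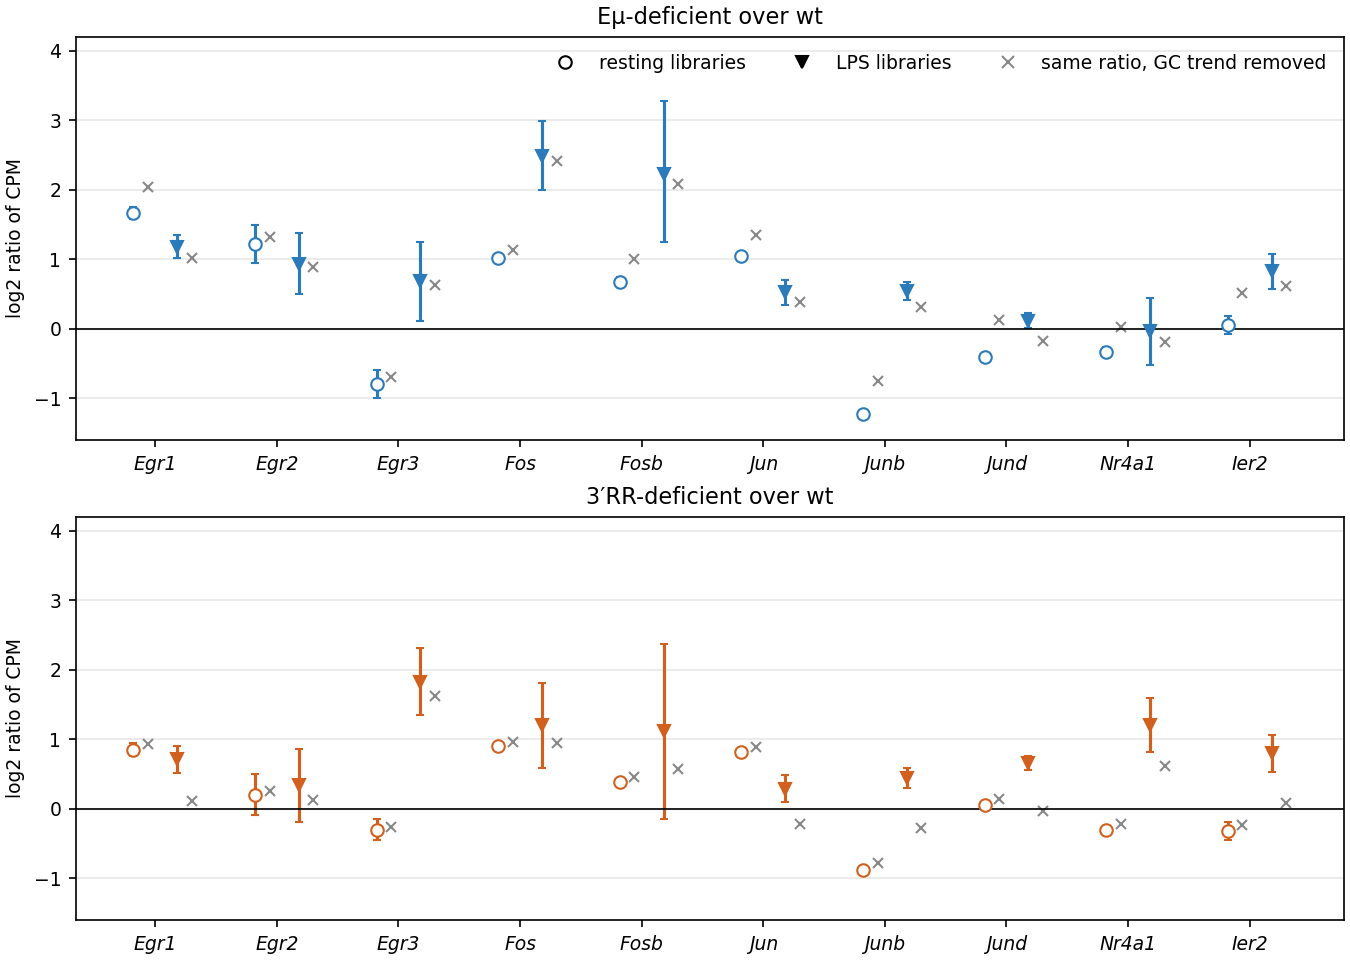
Log2 ratio of CPM to wt for each gene, Eμ-deficient above and 3′RR-deficient below, in resting (open circles) and LPS libraries (filled triangles), with bars for the exact 95% counting interval and grey crosses for the ratio with the GC trend removed. Egr1, Fos, Fosb and Jun lie above 0 in both states for both genotypes, except Jun in 3′RR-deficient LPS libraries once the GC trend is removed (-0.22), while Junb and Egr3 lie below 0 in resting and above 0 in LPS libraries, except Junb in the 3′RR-deficient LPS library with the GC trend removed (-0.28).

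Most other immediate early genes were also lower after LPS. Of 32 listed, 29 had enough counts for the test, all but Egr4, Fosl1 and Cyr61. Of these, 24 were called lower after LPS, 1 higher and 4 neither, where 21.1% of all genes tested were called lower and 19.7% higher. Their median log2 fold change was -2.34, against -0.07 over all genes tested. The largest falls were those of Klf4, a factor that restrains the cell cycle (from 58.0 to 62.8 CPM in resting to 0.574 to 1.01 CPM in LPS libraries, log2 fold change -6.31, standard error 0.31, adjusted p = 4.22e-05), of Maff, a small MAF protein (-5.56, standard error 0.31, adjusted p = 4.22e-05), and of Nr4a2, a relative of Nr4a1 (-4.42, standard error 0.35, adjusted p = 7.99e-05). Gadd45b, an NF-κB target that counters cell death, was the gene that rose, by 1.17 on the log2 scale (standard error 0.26, adjusted p = 0.00708). Among 8 partners of FOS and JUN proteins, 5 were lower and 1 higher. Batf, which pairs with JUN proteins and is needed for class switching, rose from between 4.47 and 7.49 CPM to between 43.5 and 83.0 CPM (log2 fold change 3.41, standard error 0.24, adjusted p = 6.65e-05). Maf (-4.18), Mafk (-3.24) and Jdp2 (-2.27) fell.

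The lists of upstream and decay factors are read against the backgrounds of 21.1% of all genes called lower and 19.7% called higher. Of 11 regulators that bind or co-activate immediate early promoters, 4 were called lower, 0 higher and 7 neither, with a median of -0.10. Srf, which encodes serum response factor, had a log2 fold change of 0.12 (standard error 0.26, adjusted p = 0.741) and Creb1 0.03 (standard error 0.26, adjusted p = 0.926). Those that fell most were Crem (-1.71), which encodes activators and the repressor ICER, Mkl1 (-0.97), an SRF co-activator, and Crtc3 (-0.95), a CREB co-activator. Of 14 kinases of the MAP kinase cascade, 3 were called lower, 0 higher and 11 neither (median -0.23), a share near the background. The 3 were Rps6ka5 (-1.48), which encodes the kinase MSK1 that phosphorylates CREB and histone H3, Map3k8 (-1.13), which carries Toll-like receptor signals to ERK, and Mapk14 (-1.08), which encodes p38α. Of 12 feedback inhibitors, 4 were lower, 0 higher and 8 neither (median -0.93), led by the MAP kinase phosphatases Dusp5 (-2.30), Dusp6 (-2.24) and Dusp10 (-2.04). Of 10 regulators of the decay of AU-rich RNAs, 3 rose and 2 fell (median 0.22), also near the background. Khsrp (0.96) and Hnrnpd (0.69), which bind AU-rich elements and speed decay, and Elavl1 (0.73), which encodes the stabilising protein HuR, rose, while Zfp36l2 (-2.96) and Zfp36l1 (-1.33), whose proteins recruit the deadenylase, fell. No gene of these lists was called between genotypes.

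**Figure D5:**
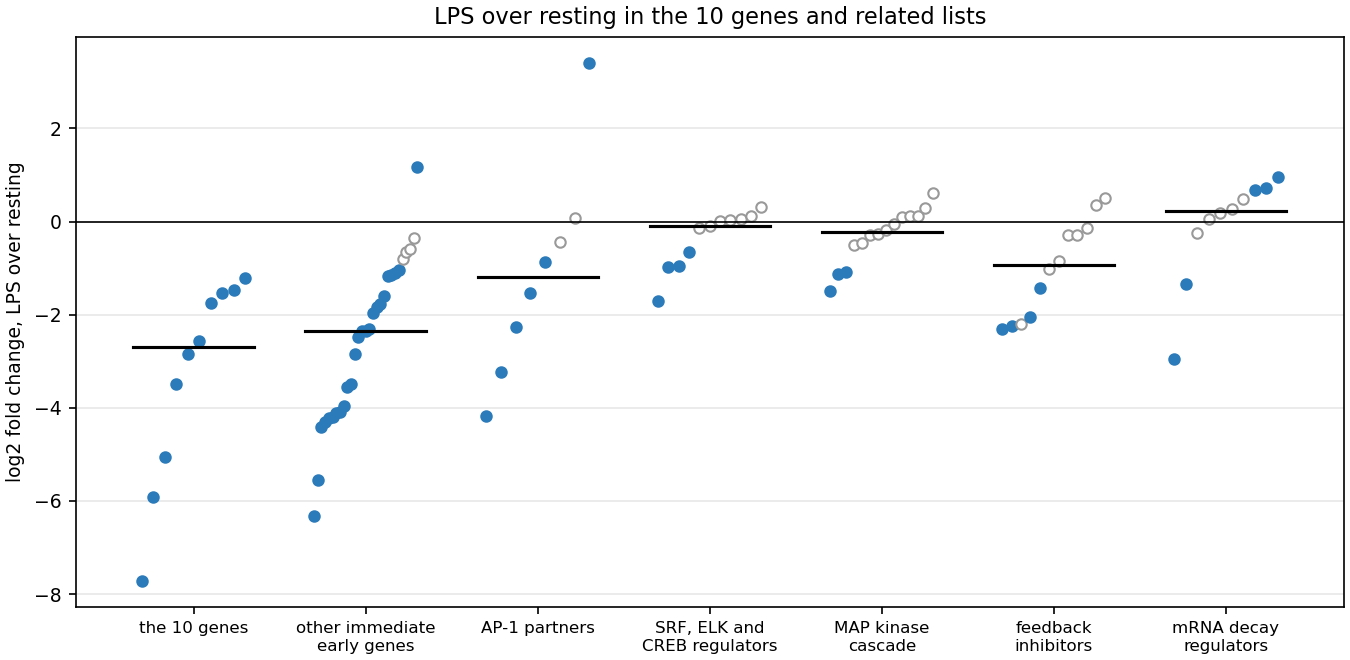
Log2 fold change, LPS over resting, from the edgeR model for each tested gene of the 10 and of 6 related lists, filled blue where the adjusted p was under 0.05 and open grey otherwise, with a bar at each list's median and no error bars. The medians are -2.34 for other immediate early genes, -0.10 for the promoter regulators, -0.23 for the MAP kinase cascade and 0.22 for the decay regulators, and Batf is the highest point at 3.41.

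Across the 6 libraries, the log2 CPM values of the 10 genes were positively correlated. Over the 45 pairs of genes Pearson's r ran from 0.667 to 0.995 with a median of 0.919, a description over 6 points that share the same libraries and are split by state. Genes outside the 10 were compared with their mean profile among 1278 candidates, kept for their level and for a minimum SD between the libraries. The most alike were Rasgef1b (r = 0.999), which encodes a guanine nucleotide exchange factor, and Gpr183 (0.998), which encodes the oxysterol receptor EBI2 that guides B-cells in the spleen. Mirt1 (0.998), Slc8b1 (0.998) and Ppp1r15a (0.997), which encodes the stress-induced phosphatase subunit GADD34, followed. Gpr183 had 113, 112 and 112 CPM in wt, Eμ-deficient and 3′RR-deficient resting B-cells and between 17.995 and 26.4 CPM after LPS.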

How the data were processed

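Total RNA of CD43-depleted splenic B-cells was depleted of ribosomal RNA and sequenced as paired reads of 150 bases. The authors mapped them to mm10 with STAR 2.4.0a and the Ensembl release 77 gene models and deposited raw counts per gene name, made with featureCounts (Subread 1.4.6-p1) on 1 strand with multi-mapping reads included, so that genes with near-identical copies can exchange reads. The mice are of the 129 strain and the reference is C57BL/6J. Gene totals ran from 9111974 to 21998587 counts, and 92 spike-in RNAs, which name no gene, took 4.75% to 7.10% of the counts and entered neither library sizes nor tests.

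Genes that reached 10 counts in 2 or more libraries were tested with edgeR 4.0.16 in R 4.3.3 (TMM, quasi-likelihood, genotype and state as additive terms), p-values adjusted after Benjamini-Hochberg across the whole table and a threshold of 0.05. Since a group is 1 library, ratios within a genotype or state have no test and carry exact conditional binomial 95% intervals (scipy 1.17.1). These cover counting error only and hold no spread between mice or cultures. Amplified reads are not independent molecules, so that the intervals can be too narrow even for counting error. The GC trend was removed per library with a lowess of span 0.3. Transcript features came from GENCODE M21 (44131 of 47055 names matched) and promoters from RefSeq.

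All members are named, with the 3 called genes of each related list that rose most and the 3 that fell most. Also named are the 5 genes most like the members by Pearson's r over log2 CPM. Candidates for these had a mean of at least 10 CPM and a minimum SD of log2 CPM, set from that of the members' mean profile. Members and lists were chosen with earlier results of these data known. Alternatives were other scalings, filters and tools (DESeq2 1.42.0, limma 3.58.1), no genotype term, GC correction and leaving out each genotype. Scaling on protein-coding genes alone was added after the data were seen. Some of the marker genes listed for B-cells and for activation are not reported here, and the sums and counts of those lists are over the other markers.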

Additional observations from a re-analysis of the deposited data

Results flagged for a closer look

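For 7 of the 20 combinations of gene and deficient genotype, in 5 genes, the ratio to wt lay on opposite sides of 0 in resting and in LPS libraries. The share of all genes with opposite signs was not computed, so that the count is not a trait of these genes. Of all genes, 51.8% lay above wt in the Eμ-deficient resting and 50.0% in the Eμ-deficient LPS library. In the 3′RR-deficient libraries it was 52.1% and 52.5%. With 1 library per group the difference between states was not tested, and both ratios share the wt genotype. For Egr3, the log2 ratio to wt was higher after LPS than in resting B-cells by 1.48 in Eμ-deficient B-cells (-0.79 resting, 0.68 after LPS) and by 2.12 in 3′RR-deficient B-cells (-0.30 and 1.83). For Junb the difference was 1.77 in Eμ-deficient (-1.22 and 0.54) and 1.32 in 3′RR-deficient B-cells (-0.88 and 0.44). It was 1.505 for Nr4a1 (-0.30 and 1.21) and 1.12 for Ier2 (-0.32 and 0.80), both in 3′RR-deficient B-cells, and 0.53 for Jund in Eμ-deficient B-cells (-0.41 and 0.12). With the GC trend removed, the ratios stayed on opposite sides in 6 of the 7, of which Jund had turned round (0.13 resting and -0.17 after LPS), and Junb in 3′RR-deficient B-cells was below 0 in both states (-0.78 and -0.28). The differences between states were then 1.33 and 1.88 for Egr3 and 1.06 and 0.51 for Junb in Eμ-deficient and 3′RR-deficient B-cells. They were 0.84 for Nr4a1 and 0.31 for Ier2 in 3′RR-deficient and -0.30 for Jund in Eμ-deficient B-cells, so that 5 of the 7 shrank by over 1.5 times or turned.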

How the results depend on the processing

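The LPS call held for all 10 genes under other scalings, filters and tools, with the GC trend removed and without the genotype term. Leaving out each genotype in turn left 9 to 10, and Egr2 alone was lost (log2 fold change -1.003, adjusted p = 0.110, without the Eμ-deficient libraries). With the GC trend removed, the median log2 LPS to resting ratio of the 10 genes went from -3.45 to -2.95 in wt, from -2.20 to -2.21 in Eμ-deficient and from -2.11 to -2.25 in 3′RR-deficient B-cells. For Eμ-deficient against wt, 2 members were called without a filter on low counts and with the DESeq2 Wald test, and 1 with limma-trend. Leaving out the 3′RR-deficient libraries gave 2 (Egr1 and Fos). For 3′RR-deficient against wt, 0 were called under all 10 alternatives. With the GC trend removed, directions turned for Ier2 in the 3′RR-deficient fit (-0.079) and in ratios to wt for Jun (-0.22), Junb (-0.28) and Jund (-0.032) in the 3′RR-deficient LPS library, Jund in the Eμ-deficient LPS (-0.17) and resting (0.13) libraries and Nr4a1 in the Eμ-deficient resting library (0.023). Junb of Eμ-deficient over 3′RR-deficient resting B-cells also turned (0.041). In the same setting, 27 other genotype ratios of 2 libraries left their counting interval without turning, and 26 stayed the same. Scaling by the total count turned Jund in the 3′RR-deficient resting library (-0.134) and moved the median LPS fold change of all genes from -0.07 to -0.16. Why these values turned was not tested. Of all genes, 5963 were called for LPS (2881 higher and 3082 lower, or 2479 and 3274 with the total count), and 3954 without the Eμ-deficient libraries. For 3′RR-deficient against wt, 99 were called, 31 with 10 counts in all 6 libraries, 178 with DESeq2, 174 without the Eμ-deficient libraries and 339 without a filter. For Eμ-deficient against wt, 171 were called, and 96, 340, 393 (without the 3′RR-deficient libraries) and 607 under the same settings. The genotype term pairs the resting and LPS library of each genotype. Without it 5425 genes and 10 of the 10 members were called for LPS. LPS levels of Fosb rest on 12 to 31 counts and those of Fos on 47 to 137, which limits their ratios between genotypes.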
